A study of Homo sapiens with 22 samples.

Results

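H3K4me3 promoters without H3K27ac are regions around gene starts that carried trimethylated lysine 4 of histone H3 in every library of that mark. No peak of acetylated lysine 27 was called over them in the 4 replicated lists of that modification. They were found in TC-32, an established Ewing sarcoma cell line, by chromatin immunoprecipitation and sequencing (ChIP-seq). The 4 H3K4me3 peak lists were merged wherever they shared at least 1 bp on chromosomes 1 to 22 and X, which gave 20727 regions. Of these, 12984 were in all 4 lists, 12633 of those were narrower than 8 kb, and 11592 of those held a transcript start of GENCODE release 44. In 2151 of the 11592 promoters (18.6%), none of the 4 replicated H3K27ac lists had an overlapping peak, and these 2151 are the members described here. The main comparison set was the 7551 promoters overlapped by H3K27ac in all 4 lists, and 1890 promoters with H3K27ac in 1 to 3 lists formed the class between. The members were chosen by the measured peaks of the H3K4me3 and H3K27ac lists, so values of these 2 marks are given as a description with no test.

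All libraries came from TC-32 cells, which carry the EWSR1::FLI1 fusion, and the cells of both arms were transfected with 20 nM siRNA. The control arm received the negative-control siRNA siNEG and the other arm received siFLI1, which depletes EWSR1::FLI1. Each arm had 2 H3K4me3 lists, 2 H3K27ac lists made with the Active Motif antibody, 2 lists of the transcription factor ETS1, and 1 further H3K27ac list whose antibody label names ab4729 beside the catalogue number of the Active Motif antibody, so the libraries may share an antibody. The labels do not say whether replicates came from separate cultures, and a single cell line limits what the arms can represent. Over the whole series, the H3K4me3 lists held 18344 to 19720 peaks, the replicated H3K27ac lists 60027 to 65501, the ab4729 lists 32738 (siNEG) and 51663 (siFLI1), and the ETS1 lists 302 and 208 (siNEG) against 1633 and 2635 (siFLI1). The peak lists hold no read totals, so the sequencing depth is unknown, and absence means that no peak reached the lists' lowest −log10 q of about 2, not that no H3K27ac was present. The starts of all 8 Ewing sarcoma marker genes carried H3K4me3 in every list, none of 10 haematopoietic markers did, and KDR was the only one of 10 endothelial markers that did. Of 10 epithelial markers KRT18 carried both marks in every list, and of 10 muscle markers TNNT1 had H3K4me3 at its canonical start in 1 siFLI1 list, while another start of TNNT1 lay in a member. The peak names in the siFLI1 ETS1 replicate 1 list carry the replicate number 2. Recovered peak heights in both siFLI1 ETS1 replicates agreed within sampling noise and more closely than separate libraries would (chi-square per degree of freedom 0.42 over 496 regions, against 0.971 over 69 regions for siNEG ETS1), and they count as 1 sample.

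H3K4me3 is deposited around transcription starts by the SET1 and MLL methyltransferase complexes, which are drawn to unmethylated CpG islands. H3K27ac is deposited by the acetyltransferases p300 and CBP and is found at active promoters and enhancers. Promoters that carry H3K4me3 without H3K27ac are known from stem cells and tumour cells, where many belong to developmental genes, and some of those also carry the Polycomb mark H3K27me3. That mark was not analysed here. EWSR1::FLI1 joins the DNA-binding domain of FLI1, an ETS family factor, to the activation domain of EWSR1, and ETS1 belongs to the same family.

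The bases before the start are shown for 5 members and 2 comparison promoters. They let the CpGs of starts with and without a peak in the replicated H3K27ac lists be read side by side. Each run is the 250 bases before the start of the transcript that Ensembl tags as canonical, read 5′ to 3′ on the gene's strand from hg38, with every CpG in capitals. VPS41 and MIGA2 were among the members with the strongest H3K4me3. ENSG00000284607 was the member with the strongest H3K4me3 among those without a protein-coding start. It had an ab4729 peak in siFLI1 (fold 4.19), and a peak of the replicated H3K27ac lists lay 306 bp away. TWIST1 and NKX6-1 were chosen after their values were seen, as members from the developmental lists, and RPL35 and RPL15 are the comparison promoters. The windows are chr7:38909192-38909441 (minus strand), chr9:129036376-129036625 (plus strand), chr6:26569074-26569323 (plus strand), chr7:19117637-19117886 (minus strand), chr4:84499293-84499542 (minus strand), chr9:124861958-124862207 (minus strand) and chr3:23916882-23917131 (plus strand).
VPS41: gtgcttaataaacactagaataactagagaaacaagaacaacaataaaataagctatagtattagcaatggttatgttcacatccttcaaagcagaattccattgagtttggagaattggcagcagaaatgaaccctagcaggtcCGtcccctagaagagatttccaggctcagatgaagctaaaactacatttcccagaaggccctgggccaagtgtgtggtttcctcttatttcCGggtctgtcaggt
MIGA2: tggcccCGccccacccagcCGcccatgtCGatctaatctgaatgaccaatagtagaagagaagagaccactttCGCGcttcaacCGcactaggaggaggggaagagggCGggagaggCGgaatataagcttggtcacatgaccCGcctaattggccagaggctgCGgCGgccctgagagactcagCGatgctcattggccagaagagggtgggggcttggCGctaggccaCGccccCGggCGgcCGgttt
ENSG00000284607: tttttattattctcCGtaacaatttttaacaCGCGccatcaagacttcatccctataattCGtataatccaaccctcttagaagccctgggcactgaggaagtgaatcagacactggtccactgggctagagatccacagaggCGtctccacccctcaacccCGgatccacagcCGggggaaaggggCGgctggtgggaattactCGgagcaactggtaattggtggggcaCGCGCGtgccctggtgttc
TWIST1: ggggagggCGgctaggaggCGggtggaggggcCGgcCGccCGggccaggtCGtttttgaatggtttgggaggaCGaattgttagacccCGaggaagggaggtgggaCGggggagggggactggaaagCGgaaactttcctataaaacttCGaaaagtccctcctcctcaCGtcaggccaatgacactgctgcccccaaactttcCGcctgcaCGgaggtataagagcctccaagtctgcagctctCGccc
NKX6-1: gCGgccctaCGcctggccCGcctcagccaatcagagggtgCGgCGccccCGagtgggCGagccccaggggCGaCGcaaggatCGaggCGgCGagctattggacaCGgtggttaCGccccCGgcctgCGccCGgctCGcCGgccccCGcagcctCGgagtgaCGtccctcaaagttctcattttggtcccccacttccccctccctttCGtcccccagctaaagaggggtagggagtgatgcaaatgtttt
RPL35: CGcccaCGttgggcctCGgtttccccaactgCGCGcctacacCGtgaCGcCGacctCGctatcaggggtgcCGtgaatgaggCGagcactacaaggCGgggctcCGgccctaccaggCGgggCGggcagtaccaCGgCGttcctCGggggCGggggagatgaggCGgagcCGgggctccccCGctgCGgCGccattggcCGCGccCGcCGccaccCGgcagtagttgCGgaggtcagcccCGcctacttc
RPL15: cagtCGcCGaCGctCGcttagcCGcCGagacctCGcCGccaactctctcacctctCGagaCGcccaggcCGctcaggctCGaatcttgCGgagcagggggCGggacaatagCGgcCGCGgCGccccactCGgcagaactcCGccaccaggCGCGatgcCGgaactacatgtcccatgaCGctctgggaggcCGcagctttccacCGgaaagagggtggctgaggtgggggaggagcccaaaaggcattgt
The MIGA2 run holds 17 CpGs, the ENSG00000284607 run 12, the TWIST1 run 15 and the NKX6-1 run 23, beside 31 in RPL35 and 26 in RPL15. These examples do not stand for the classes: over the 300-base start windows the median was 30 CpGs in members and 28 in promoters acetylated in all 4 lists. The VPS41 run holds 2 CpGs and has a GC content of 41.6%, so a strong H3K4me3 peak without H3K27ac also occurred at a start poor in CpG.

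Member promoters were narrower and had weaker H3K4me3 than acetylated ones. The median merged width was 1920 bp in members, 3255 bp with H3K27ac in 1 to 3 lists and 4222 bp with H3K27ac in all 4. The median H3K4me3 fold enrichment of the members, as the authors' peak caller gave it, was 12.9 and 13.1 in the siNEG lists and 15.2 and 15.4 in the siFLI1 lists. For promoters acetylated in all 4 lists those medians were 49.1, 52.1, 50.9 and 51.1. Each promoter's strength was also expressed as the percentile of its highest fold within its own list, averaged over the 4 lists, where 100 is the strongest peak. The median percentile was 43.2 in members and 77.0 in promoters acetylated in all 4 lists.

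**Figure D1:**
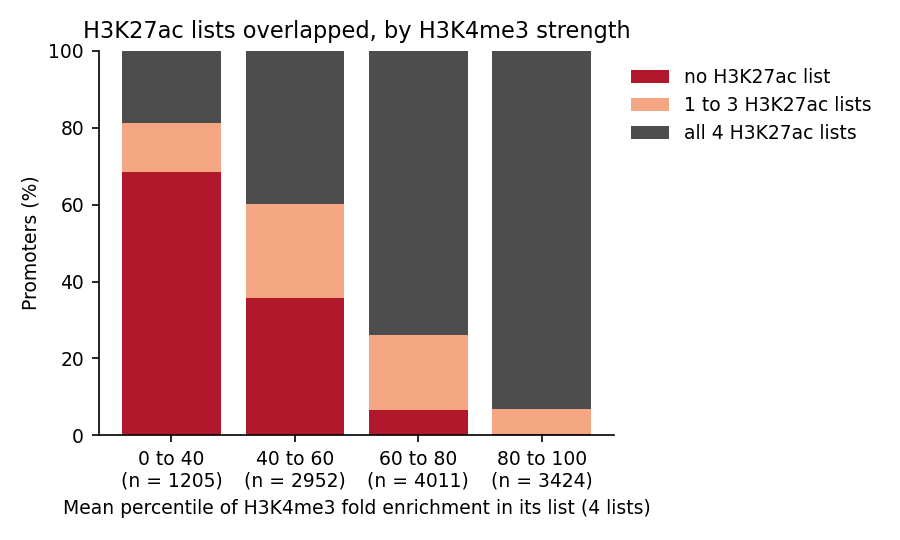
Stacked bars give the percent of promoters overlapped by none, 1 to 3 or all 4 replicated H3K27ac lists (vertical axis) in 4 bands of the mean percentile of H3K4me3 fold enrichment (horizontal axis, number of promoters in brackets). The share without H3K27ac was 68.6% in the weakest band and 0.292% in the strongest.

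Membership followed H3K4me3 strength closely, as the plot of H3K27ac lists by strength shows. The share of promoters that were members was 68.6% (827 of 1205) at percentiles 0 to 40, 35.7% (1053 of 2952) at 40 to 60, 6.51% (261 of 4011) at 60 to 80 and 0.292% (10 of 3424) at 80 to 100. In the band from 40 to 60, members and promoters acetylated in all 4 lists were about equally many, at 1053 and 1175, so comparisons of sequence and of other libraries are also given within that band, inside which strength was not matched further. Of 349 regions of 8 kb or wider that held a start in all 4 lists, 0 lacked H3K27ac. The widest members were TMEFF2 (7018 bp) and TPRG1L (6369 bp), and the regions just past the width limit, GYS1 with RUVBL2 (8000 bp) and FADS1 with FADS2 (8005 bp), had H3K27ac in all 4 lists.

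H3K4me3 without H3K27ac also occurred at a high level, in the 10 members with the strongest H3K4me3. FBXO3, the substrate-binding subunit of an SCF ubiquitin ligase, had fold enrichments of 73.6 and 56.3 in the siNEG lists and 63.6 and 60.5 in the siFLI1 lists. VPS41, a subunit of the HOPS tethering complex of late endosomes (chr7:38906837-38909426), had 62.5 and 60.8 in siNEG and 79.1 and 52.1 in siFLI1. MIGA2, a mitochondrial outer membrane protein (chr9:129036413-129039942), had 57.6 and 61.9 in siNEG and 61.6 and 66.3 in siFLI1. In all 3 genes the lists of both arms overlapped in value, and each gene lay above the members' median in every list. The other 7 of the 10 strongest were CTNNBL1, a spliceosome-associated protein, VPS50, a subunit of an endosomal recycling complex, INSIG2, which holds the sterol sensor SCAP in the endoplasmic reticulum, UBE2D1, a ubiquitin-conjugating enzyme, R3HCC1, TTC27, and the region of MFSD9 and TMEM182. Their mean percentiles ran from 81.9 to 85.3. Of the 10, R3HCC1 alone had a peak in an ab4729 list (siFLI1, fold 4.59), and the MIGA2 region ended 127 bp from the nearest H3K27ac peak.

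The nearest H3K27ac peak of any of the 4 lists lay at a median of 23334 bp from a member. It lay within 1 kb for 5.30% of members, within 10 kb for 29.1% and within 100 kb for 84.8%. GLIS1, a zinc finger factor, and RDM1 were the nearest, each 11 bp from an H3K27ac peak. On the other side of the rule, ARHGAP22 and IGDCC4 were excluded by overlaps of 11 and 35 bp. The farthest members were PARP8 (1745907 bp), NOVA1, a neuronal splicing factor (1587422 bp), and TUSC3, a subunit of the oligosaccharyltransferase (1548672 bp).

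The ab4729 lists are a measurement of the same modification in libraries the rule did not use. A peak overlapped 61 of the 2151 members in the siNEG list (2.84%, 95% exact Clopper-Pearson interval 2.18 to 3.63%) and 119 in the siFLI1 list (5.53%, 4.60 to 6.58%). Over all 11592 promoters the shares were 62.4% and 70.2%, and in promoters acetylated in all 4 replicated lists they were 88.1% and 94.3%. The members' shares were also low within a common range of H3K4me3 strength: in the band from 40 to 60, 2.28% and 5.41% of members had an ab4729 peak, against 78.3% and 89.0% of promoters acetylated in all 4 lists. These intervals cover counting error over regions only, and each arm had 1 ab4729 library, so the arms were not tested against each other. The siFLI1 ab4729 list was the longer one, and with the 32738 strongest peaks of each list the members' shares were 2.84% in siNEG and 3.02% in siFLI1.

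Of the members, 32 had an ab4729 peak in both arms (1.49%, beside 59.3% of all promoters), 87 in siFLI1 only (4.04%, beside 10.9% of all promoters) and 29 in siNEG only (1.35%, beside 3.15%). Among those in siFLI1 only, the highest folds were at NOTCH2NLC (8.69), a human-specific NOTCH2-related gene with near-identical copies, the pseudogene THA1P (8.37), the orphan receptor gene GPR157 (8.34) and C1orf159 (7.93). Those in siNEG only included SAMD12 (7.63), the region of FAM13A and TIGD2 (7.28), and the pseudogene RRP7BP (7.25). RPL35 and RPL15 had ab4729 folds of 17.1 and 7.28 in siNEG and 13.4 and 7.77 in siFLI1. The 4 members named for siFLI1 only, picked as the highest of the 87, had folds between those of RPL15 and RPL35 in the same list. They had no peak in the siNEG list, which was the shorter one.

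**Figure D2:**
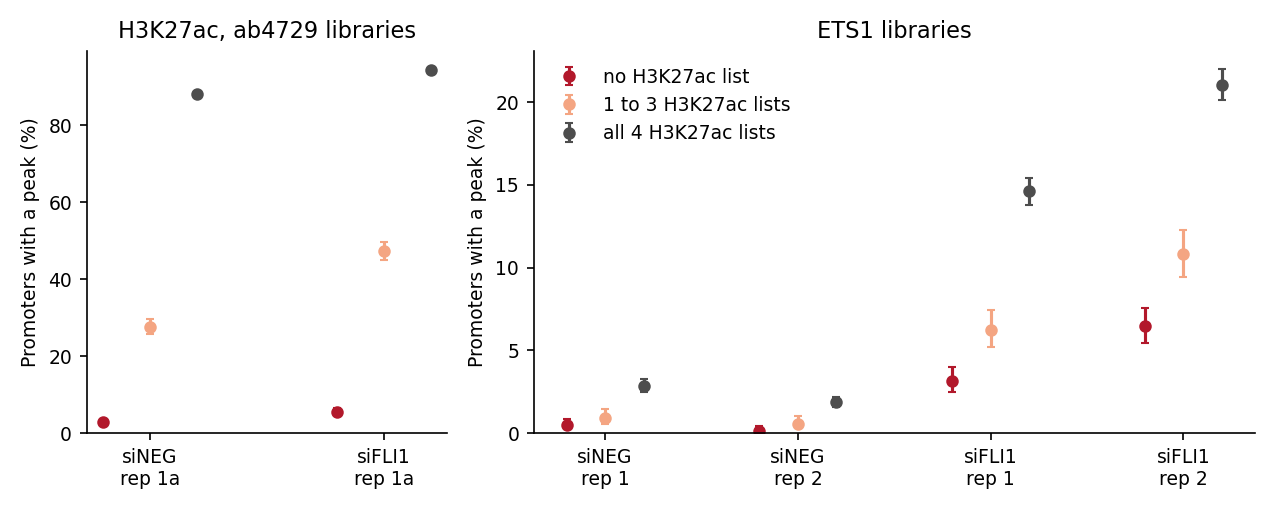
Points give the percent of promoters overlapped by a peak (vertical axes) in the ab4729 H3K27ac libraries (left) and the ETS1 libraries (right), for promoters with no, 1 to 3 or all 4 replicated H3K27ac lists. Bars are exact 95% binomial intervals over regions, and the members lie lowest in each of the 6 lists.

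Over all H3K4me3 strengths, ETS1 peaks were scarcer at members than at acetylated promoters in each list of either arm. Members were narrower (median 1920 bp, against 4222 bp with H3K27ac in all 4 lists), so they offered less length for an overlap. Shares at matched width were not computed, for ETS1 or for ab4729. In the siNEG lists, 10 members (0.465%) and 3 members (0.139%) had an ETS1 peak, beside 2.1% and 1.34% of all promoters. In the siFLI1 lists, 68 members (3.16%) and 139 members (6.46%) had one, beside 11.1% and 16.7% of all promoters. Among promoters acetylated in all 4 lists the shares were 2.87% and 1.87% in siNEG and 14.6% and 21.0% in siFLI1. Within the band from 40 to 60, the members' shares in the siFLI1 lists were 4.18% and 8.07%, against 9.62% and 14.2% for promoters acetylated in all 4 lists. In the siNEG lists they were 0.38% (exact interval 0.104 to 0.97%) and 0.095% (0.0024 to 0.528%), against 1.28% (0.716 to 2.1%) and 0.596% (0.24 to 1.22%), with intervals that overlap.

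The members' ETS1 share was 0.302% ± 0.23 (SD, n = 2) in siNEG and 4.81% in siFLI1, whose 2 lists count as 1 sample, a difference of 4.51 percentage points. The lists of the arms did not overlap in value, but an exact two-sided permutation test of 1 sample against 2 cannot go below its result here, p = 0.33. The siFLI1 ETS1 lists held more peaks genome-wide, and with the 208 strongest peaks of each list the difference was 0.116 points.

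In both siFLI1 lists, 59 members (2.74%) had an ETS1 peak, beside 10.5% of all promoters, and 49 of the 59 had none in either siNEG list, beside 945 of 1217 over all promoters. DNAH2, an axonemal dynein heavy chain gene (chr17:7716220-7718057), had ETS1 folds of 9.92 and 10.2 in siNEG and 14.8 and 22.3 in siFLI1. WDTC1, a gene linked to fat storage (chr1:27234017-27237569), had 11 and 12.1 in siNEG and 12.4 and 21.6 in siFLI1. In both genes ETS1 was therefore listed in every library, with each siFLI1 value above the siNEG values. These genes and those named next, up to FOXO6, were picked by their mean fold in the siFLI1 lists. Higher values or added peaks in siFLI1 were favoured by that choice. BMAL1, the partner of CLOCK in the circadian clock, WIZ, a zinc finger protein of the G9a complex, and the region of DRC3 and TOM1L2 had an ETS1 peak in 1 siNEG list and both siFLI1 lists. FOXO6, a forkhead factor, was listed in siFLI1 only, with folds of 8.82 and 15.4. GLI1, the Hedgehog effector that EWSR1::FLI1 is known to raise, was also listed in siFLI1 only, with folds of 10.0 and 12.6. H3K4me3 at GLI1 had folds of 14.7 and 14.5 in siNEG and 16.7 and 8.71 in siFLI1, and it had no ab4729 peak in either arm.

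The 100 bases around the ETS1 summit are shown for the members with the highest mean ETS1 fold in siFLI1. They are on the plus strand of hg38, with the ETS core GGAA and its reverse complement TTCC in capitals. The DNAH2 window is chr17:7717216-7717315 and the WDTC1 window is chr1:27234457-27234556.
DNAH2 summit: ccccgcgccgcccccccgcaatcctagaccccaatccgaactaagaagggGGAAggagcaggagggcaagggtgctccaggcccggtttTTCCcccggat
WDTC1 summit: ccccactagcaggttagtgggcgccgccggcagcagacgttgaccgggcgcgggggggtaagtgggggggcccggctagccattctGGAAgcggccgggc
Neither window holds the longer ETS motif CCGGAAG on either strand. That motif was within 50 bases of the summit in 1 of the 59 members (1.69%, exact interval 0.0429 to 9.09%) and in 75 of 1044 promoters acetylated in all 4 lists with an ETS1 peak in both siFLI1 lists (7.18%, 5.69 to 8.92%). The core GGAA, on either strand, was there in 35 of the 59 members (59.3%, 45.7 to 71.9%) and in 691 of the 1044 (66.2%, 63.2 to 69.1%). The intervals of members and acetylated promoters overlapped for both, so no difference was detectable over 59 regions.

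Start sequences were compared in the 300 bases from 250 before to 50 after the representative start of each promoter. Members were CpG-rich about as often as acetylated promoters: 86.6% of members (exact interval 85.1 to 88.0%) and 88.0% of promoters acetylated in all 4 lists (87.3 to 88.8%) had a GC content of at least 50% and an observed/expected CpG of at least 0.6. Over the canonical starts of all 19970 protein-coding genes the share was 65.5%. The median GC content was 70.7% in members and 66.0% in promoters acetylated in all 4 lists, and the median observed/expected CpG was 0.836 and 0.873. Within the band from 40 to 60, 88.0% of members (85.9 to 89.9%) were CpG-rich against 76.2% of acetylated promoters (73.6 to 78.6%).

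**Figure D3:**
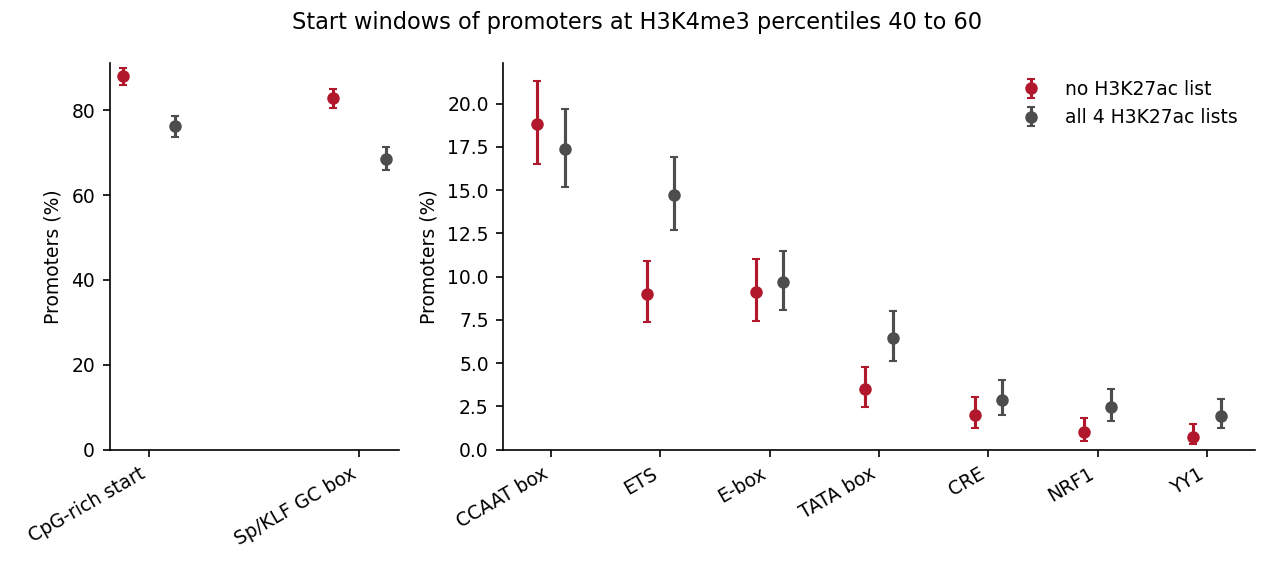
Points give the percent of promoters at H3K4me3 percentiles 40 to 60 whose 300-base start window was CpG-rich or held the named motif (vertical axes), for 1053 members and 1175 promoters with H3K27ac in all 4 lists. Bars are exact 95% binomial intervals, which do not overlap for CpG-rich starts, the GC box, the ETS motif and the TATA box.

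Over all H3K4me3 strengths, several motifs were scarcer in members than in acetylated promoters. Motifs were searched on both strands as exact letters. The ETS motif CCGGAAG was in 8.28% of members (7.15 to 9.52%) and 22.6% of promoters acetylated in all 4 lists (21.7 to 23.6%), beside 14.1% of all protein-coding starts. The YY1 motif AAGATGGCG was in 0.651% and 5.50%, the palindromic NRF1 motif in 1.12% and 2.99%, and the cyclic AMP response element TGACGTCA in 1.81% and 4.2%. These letters are the binding sites of factors known at promoters of housekeeping genes. The Sp/KLF GC box GGGCGG was more frequent in members, at 79.8% (78.1 to 81.5%) against 74.7% (73.7 to 75.6%). The CCAAT box GCCAAT (18.1% and 19.7%) and the TATA box TATAAA (4.65% and 4.86%) had overlapping intervals.

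Within the band from 40 to 60, the ETS motif was in 9.02% of members (7.36 to 10.9%) and 14.7% of acetylated promoters (12.7 to 16.9%). The GC box was in 82.8% of members (80.4 to 85.0%) and 68.5% of acetylated promoters (65.8 to 71.2%). The TATA box was in 3.51% of members (2.49 to 4.81%) and 6.47% of acetylated promoters (5.13 to 8.03%), so it was scarcer in members there. For YY1 (0.760% and 1.96%), NRF1 (1.04% and 2.47%), the cyclic AMP response element (1.99% and 2.89%) and the E-box CACGTG (9.12% and 9.70%) the intervals overlapped, as the plot of motif shares shows. A motif match describes letters in a window and shows no binding.

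By annotation, 1951 of the 2151 members (90.7%, 89.4 to 91.9%) held a start of a protein-coding gene, against 95.2% (94.7 to 95.7%) of promoters acetylated in all 4 lists. A canonical protein-coding start lay in 1702 members (79.1%), against 89.8%. Within the band from 40 to 60 both orders were the other way: 93.1% of members (91.4 to 94.5%) and 87.9% of acetylated promoters (85.9 to 89.7%) held a protein-coding start, and 82.7% (80.3 to 85.0%) and 73.9% (71.3 to 76.4%) a canonical one. The other 249 protein-coding members held only a non-canonical start. For 48 of those the gene's canonical start lay in a promoter acetylated in all 4 lists, and for 29 in a promoter acetylated in 1 to 3. It lay in another member for 36 and in a region of 8 kb or wider for 2. For the largest part, 134, it lay in no region with H3K4me3 in all 4 lists. A start of a long non-coding RNA with no protein-coding start was found in 175 members (8.14%, 7.01 to 9.37%), against 4.42% (3.97 to 4.91%). This order too was the other way within the band, with 6.08% of members (4.71 to 7.70%) and 11.2% of acetylated promoters (9.48 to 13.2%). Divergent pairs of canonical protein-coding starts within 1 kb of each other were in 24 members (1.12%) and 8.65% of promoters acetylated in all 4 lists, and in 1.04% (0.523 to 1.86%) and 2.89% (2.01 to 4.02%) within the band.

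Genes were counted where their canonical start lay in 1 of the 11592 promoters. Over all protein-coding genes, 1763 of 11316 were members, which is 15.6% and the background for each list. The member share was 62.7% for channels and neurotransmitter receptors (37 of 59, exact interval 49.1 to 75%), 50.7% for homeobox factors (36 of 71, 38.6 to 62.8%) and 50% for cadherins and protocadherins (10 of 20, 27.2 to 72.8%). It was 49.0% for developmental ligands and receptors (48 of 98, 38.7 to 59.3%) and 30.4% for other developmental transcription factors (28 of 92, 21.3 to 40.9%). No member was found among cytosolic ribosomal protein genes (0 of 64), mitochondrial ribosomal protein genes (0 of 69), respiratory chain complex I genes (0 of 42), proteasome genes (0 of 42) and clustered replication-dependent histone genes (0 of 44), which allow shares of up to 5.60%, 5.21%, 8.41%, 8.41% and 8.04% by the upper bounds of their exact intervals. Most genes of 4 of these lists had very strong H3K4me3: 62 of the 64 cytosolic ribosomal, 43 of the 69 mitochondrial ribosomal, 30 of the 42 complex I and 29 of the 42 proteasome genes lay at percentiles 80 to 100, where 0.255% of all protein-coding genes were members. For these 4 lists a count of 0 is therefore close to the background at their strength. The histone genes were weaker: 0 of 13 at percentiles 40 to 60 (exact interval 0 to 24.7%) and 0 of 5 at 0 to 40 (0 to 52.2%) were members, against 36.9% and 82.1% of all protein-coding genes.

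**Figure D4:**
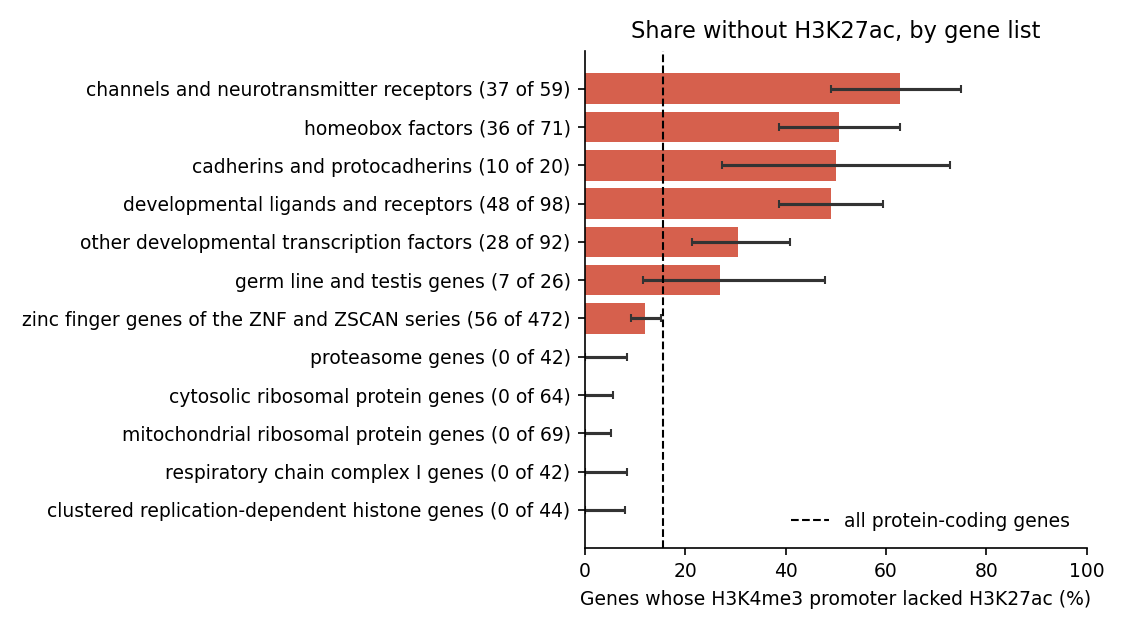
Bars give the percent of genes of each list (members of candidates in brackets) whose canonical start lay in an H3K4me3 promoter without H3K27ac (horizontal axis), with exact 95% binomial intervals. The dashed line is the share over all protein-coding genes, 15.6%, and 5 lists of housekeeping and histone genes lie at 0.

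The lists differ in H3K4me3 strength, which membership followed, so they were also read within the band from 40 to 60, where the background was 36.9% (899 of 2438 genes). There the member share was 64.5% for developmental ligands and receptors (20 of 31, 45.4 to 80.8%) and 60% for channels and neurotransmitter receptors (18 of 30, 40.6 to 77.3%), both intervals above the background. It was 52.0% for homeobox factors (13 of 25, 31.3 to 72.2%), 51.5% for other developmental transcription factors (17 of 33, 33.5 to 69.2%) and 30.8% for cadherins (4 of 13, 9.09 to 61.4%), with intervals that include the background. At percentiles 0 to 40, 82.1% of all protein-coding genes were members. The counts there were 21 of 21 for homeobox factors, 26 of 28 for ligands and receptors, 19 of 22 for channels and 10 of 14 (71.4%) for other developmental factors. At percentiles 60 to 80 the background was 6.17%, and the interval of each of these lists included it. The counts there were 2 of 26 for ligands and receptors, 2 of 21 for homeobox factors and 1 of 31 for other developmental factors. For channels the count was 0 of 3 and for cadherins 1 of 2. Many genes of these lists had no H3K4me3 at their canonical start in any list, 102 of 193 homeobox genes and 212 of 289 channel and receptor genes among them, and those are outside these shares.

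Among the homeobox members, SHOX2, a factor of limb and sinus node development that shares its region with RSRC1, had the strongest H3K4me3, with folds of 18.7 and 39.2 in siNEG and 45.1 and 37.4 in siFLI1. POU4F1, a factor of sensory neurons, had 34.9 and 28.7 in siNEG and 25.4 and 36.9 in siFLI1. NKX6-1, a factor of motor neuron progenitors and pancreatic beta cells (chr4:84495167-84500271), had 17.2 and 33.9 in siNEG and 28.2 and 26.9 in siFLI1. In these 3 genes the 2 arms overlapped. MEIS3, a partner of HOX proteins, had 20.8 and 20.1 in siNEG and 45.8 and 44.8 in siFLI1, so its arms did not overlap.

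TWIST1, a factor of mesoderm and of epithelial-mesenchymal transition (chr7:19113544-19118814), was the strongest of the other developmental factors, with folds of 43.0 and 39.4 in siNEG and 38.7 and 48.5 in siFLI1. FOXD1, a factor of kidney stroma, had 26.2 and 24.0 in siNEG and 27.4 and 33.7 in siFLI1. NPAS2, a relative of CLOCK, had 17.3 and 23.6 in siNEG and 30.2 and 34.4 in siFLI1. HES6, a factor of neurogenesis, ranged from 14.6 to 40.3 over the siNEG lists, a spread that covered both siFLI1 values. By rank among all 11592 promoters, which allows for the higher folds of the siFLI1 lists as a whole, the arms overlapped at TWIST1, FOXD1 and HES6. They did not at NPAS2, with ranks of 20.4 and 26.9 in siNEG and 32.3 and 37.4 in siFLI1. None of the 4 had an ab4729 peak in either arm.

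Among ligands and receptors, SEMA4B and SEMA4D, transmembrane semaphorins, had the strongest H3K4me3, with mean percentiles of 70.9 and 69.0. FZD5, a Wnt receptor, had folds of 38.2 and 36.4 in siNEG and 39.0 and 15.9 in siFLI1. DKK2, a secreted Wnt antagonist, had 30.8 and 39.4 in siNEG and 20.3 and 21.2 in siFLI1, so both siFLI1 values were below both siNEG values. Members of the list with lower percentiles included SHH, BDNF, GDNF, KDR and SLIT2, which are signals or receptors of neural and vascular development. Among channels and receptors, TRPC1, a cation channel, GLRB, a glycine receptor subunit, HCN3, a hyperpolarization-activated channel, and KCNS3, a potassium channel subunit, led with mean percentiles of 53.3 to 57.1. Among cadherins, CELSR2, a protein of planar cell polarity, led at 66.2.

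The zinc finger genes of the ZNF and ZSCAN series, many of them transcriptional repressors, had a member share of 11.9% (56 of 472, 9.09 to 15.1%), below the background of 15.6%. Within the band from 40 to 60 it was 26.0% (27 of 104, 17.9 to 35.5%) against 36.9%. At percentiles 60 to 80, where 227 of the 472 lay, it was 8.37% (19 of 227, 5.11 to 12.8%) against 6.17%, an interval that includes the background. Runs of neighbouring members were counted without a like count for other promoters, so they do not show whether members cluster. Over all members, 150 lay in 42 runs of 3 or more spaced by at most 100 kb. The 2 longest had 6 members each, on chromosome 19, from ZNF439 to ZNF844 and from ZNF419 to ZNF671, the second with the pseudogene TPRG1LP1 among its members. Between those members lay 2 and 6 other promoters that were not members. On chromosome 6, a run of 5 members with 0 other promoters between held LRP11, ULBP2, ULBP1, RAET1K and ULBP3. The ULBP genes encode ligands of the NK cell receptor NKG2D. By chromosome, the member share ranged from 14.5% on chromosome 16 (11.5 to 17.8%) to 27% on chromosome 4 (23 to 31.3%).

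Of the genes listed as raised by EWSR1::FLI1, GLI1 was the 1 member among 12 whose canonical start lay in a candidate promoter, and of those listed as lowered, LOX was the 1 among 11. A non-canonical start of PAX7, a raised gene that encodes a paired-box factor, also lay in a member, with H3K4me3 ranks of 6.19 and 14.3 in siNEG and 5.48 and 4.24 in siFLI1. LOX, lysyl oxidase, had H3K4me3 folds of 3.11 and 3.59 in siNEG and 11.5 and 14.3 in siFLI1, so both siFLI1 values were above both siNEG values. The germ line and testis list had 7 members of 26 (26.9%, 11.6 to 47.8%), an interval that includes the background. TDRD7, a tudor domain protein of germ granules, led it with a mean percentile of 68.2.

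H3K4me3 at members was compared between arms by rank, as a description, because the rule used these lists. Within each list the 11592 promoters were ranked by fold enrichment, with 100 the strongest. In 571 members (26.5%) both siFLI1 ranks were above both siNEG ranks, beside 23.1% of all promoters, and in 540 (25.1%) both were below, beside 21.6%. The median shift of the members, siFLI1 minus siNEG, was 0.25 points. Shifts of at least 10 points without overlap were upward in 183 members (8.51%, beside 14.5% of all promoters) and downward in 127 (5.90%, beside 13.1%). Both shares of larger shifts were below those of all promoters. A promoter with a mean siNEG rank below 10 cannot fall by 10 points, and members tended to rank low. Shares at matched H3K4me3 strength were not computed, so these values do not show whether members were more stable between arms.

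**Figure D5:**
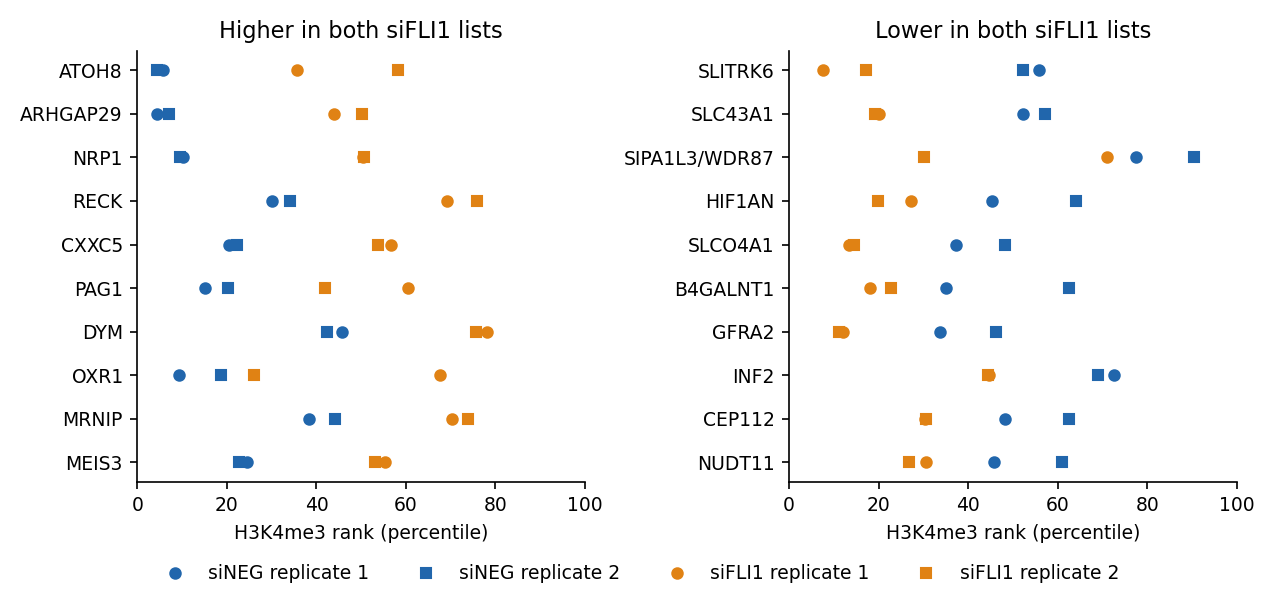
Points give the H3K4me3 rank among 11592 promoters (horizontal axes, percentile) in each of the 4 lists, for the 10 members with the largest upward (left) and downward (right) mean shift among those whose arms did not overlap. ATOH8 moved from ranks of 5.67 and 4.34 in siNEG to 35.7 and 58.3 in siFLI1, and SLITRK6 from 55.8 and 52.3 to 7.48 and 17.2.

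The members with the largest shifts were chosen after their values were seen. ATOH8, a basic helix-loop-helix factor, had H3K4me3 folds of 6.95 and 6.22 in siNEG and 32.4 and 47.9 in siFLI1. ARHGAP29, a GTPase-activating protein, had 6.20 and 8.01 in siNEG and 38.4 and 42.9 in siFLI1. NRP1, a co-receptor for semaphorins and VEGF, had 9.58 and 9.32 in siNEG and 42.6 and 43.1 in siFLI1. These 3 promoters had ranks of at most 10.1 in siNEG and of 35.7 to 58.3 in siFLI1. RECK, an inhibitor of matrix metalloproteinases, rose in rank from 30.2 and 34.2 to 69.3 and 75.9. CXXC5, PAG1, DYM, OXR1, MRNIP and MEIS3 completed the 10 with mean shifts of 30.6 to 33.9 points. Of these 10 upward members, MRNIP had an ab4729 peak, in siFLI1 (fold 5.50), beside 5.53% of all members. ETS1 peaks were listed in siFLI1 at NRP1 (6.11) and CXXC5 (5.35) in replicate 2 and at PAG1 (5.59 and 7.0) in both. Over all members, 3.16% had an ETS1 peak in siFLI1 replicate 1 and 6.46% in replicate 2. The 10 members are too few for a comparison with these shares.

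The largest downward shift was at SLITRK6, a neuronal transmembrane protein, with folds of 43.6 and 43.7 in siNEG and 9.53 and 17.7 in siFLI1. SLC43A1, an amino acid transporter, had 41.4 and 46.9 in siNEG and 19.8 and 19.6 in siFLI1. B4GALNT1, the enzyme that makes the gangliosides GM2 and GD2, had 29.4 and 50.8 in siNEG and 17.9 and 22.6 in siFLI1. GFRA2, a receptor of the GDNF family, had 28.3 and 39.2 in siNEG and 13.0 and 12.5 in siFLI1. HIF1AN, the asparaginyl hydroxylase of HIF, SLCO4A1, INF2, CEP112, NUDT11 and the region of SIPA1L3 and WDR87 completed the 10, as the plot of ranks shows. Of these 10 downward members, SIPA1L3 with WDR87 had an ab4729 peak, in siNEG (fold 5.89), and none had an ETS1 peak, which is the state of most members.

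Over the gene lists, the shifts went both ways. Of 36 homeobox members, 10 were higher and 10 lower in both siFLI1 lists, with a median shift of -0.52 points. Of 28 other developmental factors 11 were higher and 6 lower, with a median shift of 3.65 points. The median shift was 1.02 points for zinc finger members, 5.07 for germ line and testis members and -1.43 for cadherins. Of 48 ligands and receptors, 14 were higher and 21 lower, and of 37 channels and receptors 7 were higher and 12 lower, with median shifts of -1.20 and -1.60 points. Over all 1763 genes with a member promoter, 464 were higher and 445 lower, with a median shift of 0.26 points.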

How the data were processed

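The deposited files are 14 peak lists in narrowPeak format, 1 per library, from 22 samples of which 8 are inputs that were not analysed here. Per the submitters' processing notes the tools were cutadapt 4.4, BWA 0.7.17, Picard 2.17.11 and MACS2 2.1.1, with the builds GRCh38/hg38 and dm6; their settings, the control of each call and the role of dm6 are not given in the sources used here. Each list gives the authors' integer score, fold enrichment (a ratio over local background) and the −log10 p and −log10 q of each peak, as deposited. Fold enrichment served to rank peaks, −log10 q to set thresholds, and −log10 p with fold to recover peak heights for the check of replicates. That check is approximate for siNEG ETS1, where whole heights gave the deposited −log10 p within 0.05 for 30.8% and 18.3% of peaks, against 100% of siFLI1 ETS1 peaks.

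Peaks were merged and intersected at 1 bp with Python 3.11.15 (numpy 2.4.6, pandas 2.3.3, scipy 1.17.1), and sequences were read from hg38. The representative start was the canonical protein-coding start nearest the region centre, otherwise another canonical start, otherwise any. Intervals are exact Clopper-Pearson at 95%. The only test compared the ETS1 peak share of members between arms, by exact permutation over libraries. The scripts were tested on simulated data. The members and the gene lists were chosen with earlier results of these data known. Named genes are the 10 members with the strongest H3K4me3, up to 4 per list, and those nearest the rule's limits. The 3 farthest from H3K27ac and runs of members are also named. Up to 6 with an ETS1 peak in both siFLI1 lists were named by their mean siFLI1 fold. Up to 4 per arm were named by ab4729 fold. Others are said to be chosen after their values were seen, or are the lists' further members. Alternatives covered the starts counted, the H3K27ac overlap, peak thresholds, the width limit, list lengths, the start window and leaving out each replicate. A few items that this rule names are not reported here.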

Additional observations from a re-analysis of the deposited data

How the results depend on the processing

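The number of members ranged from 1668 to 2396 over the alternatives, against 2151, and the ETS1 difference, both ab4729 shares and the CpG-rich, protein-coding and developmental factor shares were recomputed too; motif, gene-list, rank and within-band values were not. Of 89 alternative values, 82 stayed within the main value's interval, within 1.5 times the member count or, for the ETS1 difference, on the same side, which its p cannot leave; 7 moved. With outermost gene starts only, 82.3% of members were CpG-rich and 86.6% held a protein-coding start; with a start allowed within 1 kb, 83.9% were CpG-rich. For the siFLI1 ab4729 list, the members' share was 3.67% with peaks at −log10 q of at least 5 and 3.02% with equal numbers of the strongest peaks. Leaving out a replicate gave 2.88% to 3.71% for the siNEG ab4729 share, the highest without siNEG replicate 1, and 5.54% to 7.23% for the siFLI1 share, the highest without siFLI1 replicate 1. The ETS1 difference of 4.51 points was 3.44 with ETS1 peaks at −log10 q of at least 5, 0.116 with equal numbers of the strongest ETS1 peaks, and 3.07 to 6.20 when a replicate was left out. The cause of these changes was not tested, apart from the shorter lists that equal numbers make. No paired analysis was possible because the siFLI1 ETS1 lists count as 1 sample, so the arms share fewer than 2 replicate numbers. Unknown depth limits every absence described: it is the absence of a listed peak.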
